A study of Rattus norvegicus with 9 samples.

Results

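The ribosomal protein genes of the rat were followed across 9 arrays. They comprised every probe set with a single gene symbol that began with Rpl, Rps, Mrpl or Mrps and a digit, together with Rpsa and the stalk genes Rplp0, Rplp1 and Rplp2, and without the Rps6k kinases. The rule used names only and found 269 probe sets with 240 symbols among 36685 probe sets, of which 14824 had exactly 1 symbol. Another 51 probe sets named a ribosomal protein among several symbols and were not counted as members. Gene arrays (Affymetrix Rat Gene ST) had been hybridised with RNA of whole livers and of cultured macrophages. The CSF1-Fc livers (n = 4) came from newborn Sprague Dawley pups injected daily for 5 days with pig CSF1-Fc, the macrophage growth factor CSF1 fused to an antibody Fc region, at 1 µg/g. The PBS livers (n = 2) came from pups of the same strain and age given the saline vehicle, and all 6 livers were taken on day 6 from offspring of dams that had themselves been injected with PBS in pregnancy. Bone marrow-derived macrophages (BMDM, n = 3) came from bone marrow cells of the Dark Agouti strain that had been cultured with CSF1 for 7 days. Strain and culture therefore cannot be told apart from cell type in any comparison with BMDM. The study held the BMDM arrays separately from the liver experiment, and whether all arrays were normalised together is not given in the sources used here.

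The cytosolic ribosome, built of a large and a small subunit, translates nuclear mRNAs, and its proteins are made in near-equal numbers and are among the most abundant mRNAs of growing cells. The mitochondrial ribosome has its own set of nuclear-encoded proteins (Mrpl for the large subunit, Mrps for the small subunit) and makes the few respiratory chain subunits encoded in mitochondrial DNA, on which hepatocytes rely heavily. Rodent genomes also hold many processed copies of cytosolic ribosomal protein genes, most of them without known function.

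Of the members, 204 probe sets belonged to cytosolic ribosomal proteins, 64 to mitochondrial ones and 1, Rps19bp1, to a binding partner of Rps19 that is not a subunit. Standard gene symbols accounted for 72 of the cytosolic probe sets, 54 of the large subunit (33 genes) and 18 of the small subunit (12 genes). A further 129 carried symbols of copies, with a -ps ending or a numbered "l" ending, and RefSeq lists 90 of these as protein coding and 36 as pseudogenes. The other 3 were the named paralogs Rpl3l, Rpl7l1 and Rps4y2. The mitochondrial probe sets stood for 40 genes of the large subunit and 21 of the small subunit, plus the copies Mrps11-ps1 and Mrps21l. Some probe sets repeated each other: those of Rpl18 (3 probe sets), Rpl30 (2), Rpl39 (2) and Rps10l6 (2) had the same value on every array, which left 264 members with distinct values.

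Hepatocyte markers separated tissue from culture, with 11 of 11 measured markers lower in BMDM than in CSF1-Fc livers (median log2 difference -8.95). Macrophage markers rose with CSF1-Fc, 11 of 13 measured (median log2 difference 1.86). Of the same 13, 2 were higher and 7 lower in BMDM than in CSF1-Fc livers (median log2 difference -1.12). Over all probe sets 19.9% were called higher and 17.5% lower in BMDM than in CSF1-Fc livers. PBS liver 2 stood slightly apart, with correlations of 0.951 to 0.962 with the other livers against 0.971 to 0.985 among the remaining pairs.

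The first comparison asked whether CSF1-Fc changed ribosomal protein mRNAs in the liver. No member passed at an adjusted p under 0.05 (limma, Benjamini-Hochberg over all probe sets), where 1.22% of all probe sets were called higher and 0.254% lower. By unadjusted p under 0.05, 3 members were higher and 4 lower, 2.6% of them beside 13.7% of all probe sets. The lowest adjusted p was 0.2011, for Rpl24l1, a copy that read between 1.00 and 1.87 in all 6 livers, at the dim end of the array (-0.54 log2). The labels do not say that arrays of a group came from separate animals or cultures, so p-values measure only the spread between these samples, which may be technical. In whole tissue fewer cells of a type and less RNA per cell cannot be told apart.

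The median log2 difference (CSF1-Fc minus PBS) was 0.04 for the standard cytosolic genes, -0.08 for the cytosolic copies and -0.21 for the mitochondrial probe sets, beside -0.03 for all probe sets. Of the 64 mitochondrial probe sets, 53 lay below zero, where 45.2% of all probe sets lay above it. The ranges of the groups did not overlap for 5 members that were higher and 12 that were lower, beside 10.3% and 10.4% of all probe sets.

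The spread within the PBS group was wide for ribosomal proteins. For the standard cytosolic genes the median SD was 0.67 log2 in PBS livers and 0.20 in CSF1-Fc livers, while over all probe sets it was 0.26 and 0.19. Relative to the mean of the 6 livers, the median standard cytosolic probe set lay at -0.46 log2 in PBS liver 1 and at 0.43 in PBS liver 2, and between -0.19 and 0.16 in the CSF1-Fc livers. The PBS livers therefore lay on either side of all 4 treated livers. For the mitochondrial probe sets the corresponding values were -0.21, 0.50 and -0.21 to 0.08, so that only PBS liver 2 stood clear of the treated livers. Over all probe sets the medians of the 6 livers lay between -0.01 and 0.02.

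**Figure D1:**
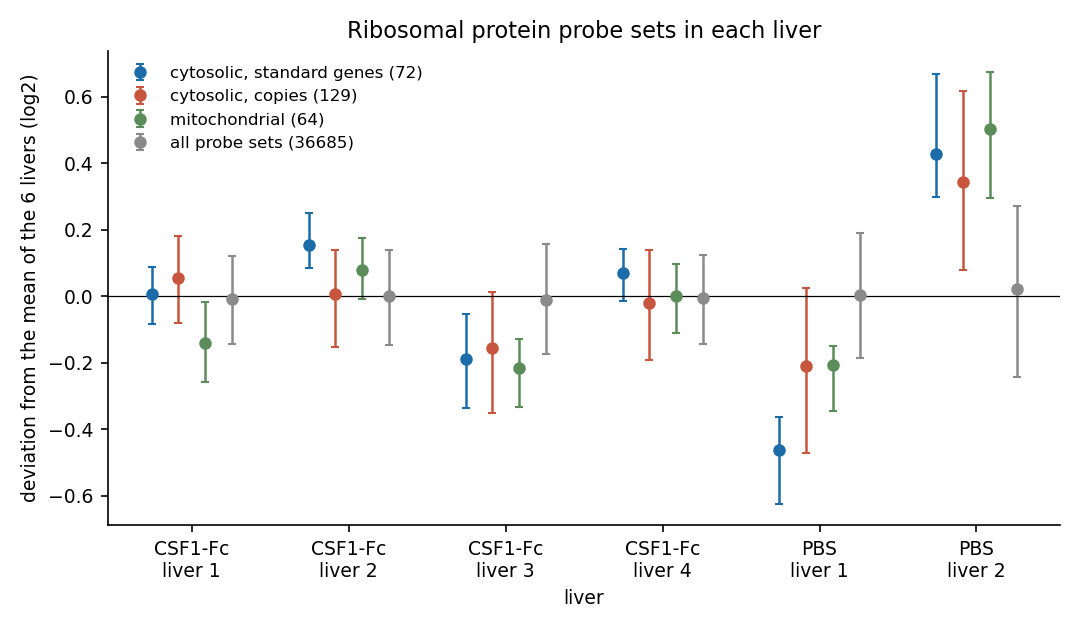
Deviation of ribosomal protein probe sets from the mean of the 6 livers (vertical axis, log2) in each liver (horizontal axis). Points are medians over the probe sets of a class and bars run from the first to the third quartile; the standard cytosolic median is -0.46 in PBS liver 1 and 0.43 in PBS liver 2, and the grey points of all probe sets stay near zero.

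This order was common among single members. PBS liver 1 was below and PBS liver 2 above every CSF1-Fc liver for 49 of 72 standard cytosolic probe sets (68.1%), 37 of 129 copies (28.7%) and 21 of 64 mitochondrial ones (32.8%), beside 7.03% of all probe sets. The opposite order was seen for 2 of 269 members, both copies, and for 5.72% of all probe sets. PBS liver 2 exceeded PBS liver 1 by a median of 0.94 log2 in the standard cytosolic class and 0.71 in the mitochondrial class, against 0.00 for all probe sets.

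Rpl30, a large-subunit protein, illustrates the range on 1 of its 5 probe sets. Probe set 17656054 read 8.02 and 10.47 in the PBS livers and 10.39, 9.64, 10.05 and 9.59 in the CSF1-Fc livers. The treated livers all fell between the PBS livers, and the log2 difference of 0.67 (SE 0.65) had an adjusted p of 0.6953. The differences of the 5 probe sets ran from -0.50 to 0.67, and none passed. Rps3, a small-subunit protein that also acts in DNA repair, read 6.12 and 7.37 in the PBS livers against 7.14, 7.08, 7.05 and 7.30. Its log2 difference of 0.40 (SE 0.33) was the highest of the standard small-subunit genes and did not pass. The highest difference of all members belonged to a dim copy, Rpl30l3 on chromosome 2, which read 2.71 and 1.74 in PBS livers and 3.78, 3.14, 3.07 and 2.79 in CSF1-Fc livers. These groups did not overlap, but the difference of 0.97 (SE 0.36) had an adjusted p of 0.3132. The lowest differences of the cytosolic subunits belonged to other copies, Rps18l2 (-0.68) in the small and Rpl14l2 (-0.59) in the large, and neither passed.

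Among the mitochondrial genes the lowest differences were those of Mrpl23, Mrpl50 and Mrpl14 of the large subunit. Mrpl23 read 8.46 and 10.26 in the PBS livers and 8.54, 8.67, 8.52 and 8.47 in the CSF1-Fc livers. Only PBS liver 2 was high, and the log2 difference of -0.81 (SE 0.46) had an adjusted p of 0.5032. Mrpl50 had the same shape, at 6.17 and 7.69 against 6.01, 6.07, 6.43 and 6.15. Mrpl14 read 6.36 and 7.56 against 6.26, 6.30, 6.12 and 6.27, and here both PBS livers lay above the treated ones. In the small subunit Mrps14, Mrps24 and Mrps18c were the lowest, at -0.56, -0.53 and -0.50 log2, and none passed. The highest were Mrps31 (0.13), Mrps2 (0.10) and the copy Mrps11-ps1 (0.08), and Mrpl47, Mrpl18 and Mrpl20 led the large subunit at 0.21, 0.16 and 0.16.

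The result turned on which PBS liver was used. Without PBS liver 1, 22 members were lower in CSF1-Fc livers (limma), 8.18% of them beside 3.43% of all probe sets called lower in that fit. Of these, 14 were mitochondrial (21.9% of that class), 7 were cytosolic copies and 1 was a standard cytosolic gene, Rpl22. Mrpl23 (-1.70, SE 0.12, adjusted p = 0.02636), Mrpl50 (-1.53) and Mrpl27 (-1.41) led them, and in this fit 1 PBS liver was assumed to vary like the treated ones. Without PBS liver 2 no member passed (limma; 47 higher and 2 lower had an unadjusted p under 0.05), where 0.78% of all probe sets were called higher and 0.292% lower (8.41% and 8.8% unadjusted), and the median of the standard cytosolic class moved from 0.04 to 0.48 while that of the mitochondrial class moved from -0.21 to 0.13.

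Genes that work with the ribosome were compared in the same livers. Of 54 measured genes of rRNA processing and subunit assembly 1 was called higher with CSF1-Fc and 0 lower (limma), with a median of 0.19 log2. By unadjusted p under 0.05 there were 12 higher and 0 lower, 22.2% of the list beside 13.7% of all probe sets, and 45 of the 54 lay above zero. No gene of the initiation factors (21 measured), elongation factors (8), RNA polymerase I (13), S6 kinases and mTOR pathway (10), mitochondrial translation factors (9) or mitochondrial tRNA synthetases (11) passed (limma). At an unadjusted p under 0.05 there were 2, 3, 0, 0, 1 and 0 such genes in the same order. The PBS livers were set side by side here too: the median elongation factor lay at -0.28 in PBS liver 1 and 0.26 in PBS liver 2, and the median rRNA processing gene at -0.11 and -0.16. Rack1, a small-subunit component outside the naming rule, lay at -0.64 and 0.24. Median hepatocyte, erythroid, neutrophil and macrophage markers lay at 0.13, -0.11, 0.62 and -1.45 in PBS liver 1 and at 0.01, 0.05, 0.95 and -0.99 in PBS liver 2. The erythroid, neutrophil and macrophage medians were thus higher in PBS liver 2, as the ribosomal proteins were, and the hepatocyte median was lower. The part of these cell types in the spread of the ribosomal proteins was not tested.

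The second comparison set BMDM beside the CSF1-Fc livers, to place liver expression against a macrophage population. Here 124 members were higher in BMDM and 25 lower, where 19.9% of all probe sets were called higher and 17.5% lower. Counting repeated probe sets once left 120 and 25. The ranges did not overlap for 137 higher and 28 lower members, beside 24.1% and 20.1% of all probe sets. The standard cytosolic genes had the highest median of the classes, with 54 of 72 probe sets higher and 4 lower and a median log2 difference of 1.40 (2.63-fold), beside 0.14 for all probe sets. Of the 129 copies 45 were higher and 6 lower (median 0.49). The mitochondrial probe sets went both ways, with 25 of 64 higher and 14 lower (median 0.31).

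**Figure D2:**
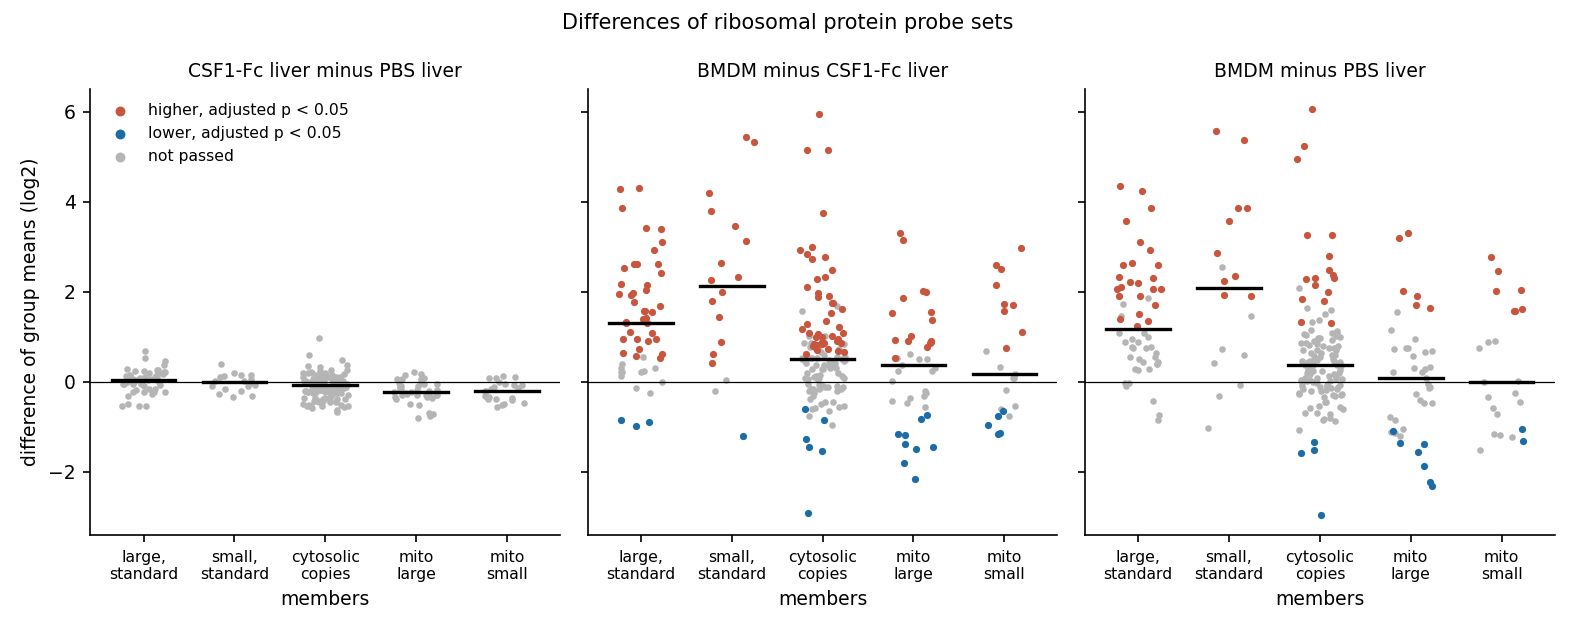
Difference of group means (vertical axis, log2) for each ribosomal protein probe set, by class (horizontal axis) in the 3 comparisons. Each point is a probe set, coloured by its call at an adjusted p under 0.05, and black bars are class medians; in the middle panel the bars lie at 1.31 and 2.12 for standard genes of the large and small subunit, and the left panel holds no coloured point.

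In the small subunit 15 of 18 standard probe sets were higher and 1 lower, with a median of 2.12 log2. Rps3a, which lies near the mRNA exit, read 5.91, 5.88, 5.58 and 5.56 in CSF1-Fc livers, while BMDM 1 and 2 read 10.38 and 11.11 and BMDM 3 lay higher still (5.43, SE 0.35). Rps15a read 6.20, 6.81, 6.43 and 6.79 in the livers and 11.87, 11.95 and 11.81 in BMDM, an increase of 5.32 log2 (SE 0.19, 40.0-fold, adjusted p = 9.679e-07). Both genes were separated from the livers by several log2 units, and their levels in the PBS livers, 5.01 and 6.17 for Rps3a and 5.77 and 7.22 for Rps15a, were in the liver range. Rps16 rose by 4.19 on its probe set 17614858 and differed by 0.03 on the other, which was spread widely within BMDM (SE 0.59). Rps6, the substrate of the S6 kinases, was divided within BMDM and was chosen after its values were seen: it read 4.73, 8.55 and 8.18 there, with BMDM 1 close to the CSF1-Fc livers at 4.50, 4.63, 4.58 and 4.39.

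In the large subunit 39 of 54 standard probe sets were higher and 3 lower, with a median of 1.31 log2. Rpl22, an RNA-binding protein, rose on both of its probe sets, by 4.30 (SE 0.14, 19.8-fold, adjusted p = 6.11e-07) and 3.87 (SE 0.17). Its probe set 17792908 read 5.93, 5.98, 5.83 and 5.91 in CSF1-Fc livers, 5.43 and 6.52 in PBS livers and 10.22, 10.05 and 10.37 in BMDM. Rpl24, which joins the large subunit late in its assembly, read 7.75, 7.65, 6.69 and 7.74 in the livers and 11.96, 11.83 and 11.45 in BMDM (4.29, SE 0.29). The BMDM arrays stood above all livers for each of these genes. Of the stalk, which recruits elongation factors to the ribosome, Rplp0 rose by 1.57 (SE 0.20, adjusted p = 0.000612), whereas Rplp2 differed by 0.14 (SE 0.14, adjusted p = 0.4698) between mean levels of 11.05 and 11.19.

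Fewer standard cytosolic probe sets were lower in BMDM. Rpl18 (probe set 17616479), Rpl28 and Rpl4 of the large subunit fell by 0.98, 0.89 and 0.85 on the log2 scale, and Rpsa, a small-subunit protein also known as a laminin receptor, fell by 1.21 on probe set 17848884. For Rpsa and Rpl18 the probe sets of the gene disagreed. Rpsa read 11.21, 11.44, 11.21 and 11.36 in CSF1-Fc livers and 9.81, 10.20 and 10.29 in BMDM on probe set 17848884, a decrease. On probe set 17690182 it read 6.67, 7.15, 6.41 and 6.45 in the livers and 9.57, 9.76 and 10.06 in BMDM, an increase of 3.13 (SE 0.22). Rpl18 was likewise higher, with readings of 10.23, 9.76 and 10.58 in BMDM against 7.58, 7.88, 7.21 and 7.68, on its 3 identical probe sets. When both probe sets of Rpsa were averaged it was higher in BMDM by 0.96 (adjusted p = 0.004308). Direction was therefore not settled for Rpsa and Rpl18.

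**Figure D3:**
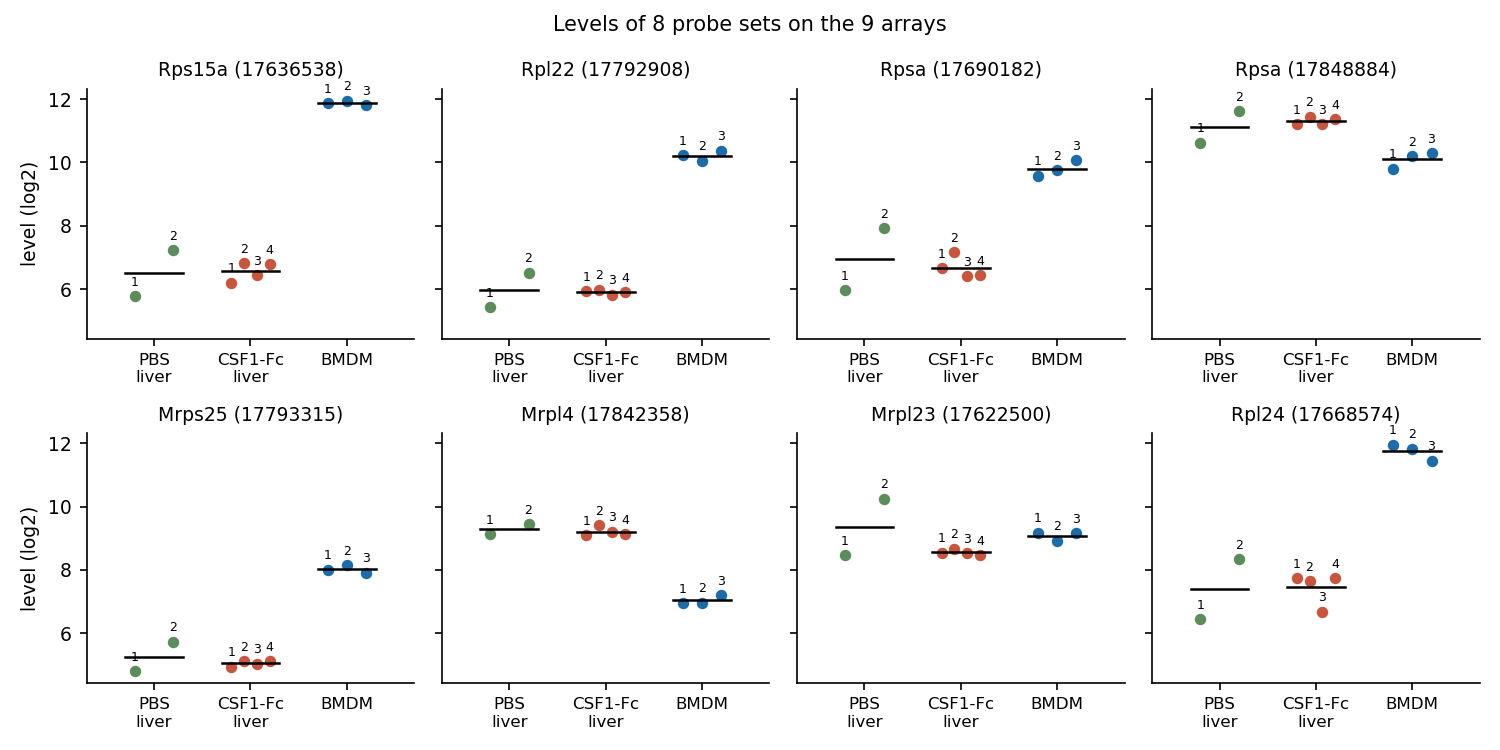
Levels (vertical axis, log2) of 8 probe sets on the 9 arrays, by group (horizontal axis). Each numbered point is 1 array and black bars are group means; the probe sets of Rpsa move in opposite directions between liver and BMDM, and Mrpl23 reaches 10.26 in PBS liver 2 against 8.46 in PBS liver 1.

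The mRNAs of vertebrate cytosolic ribosomal proteins typically begin at a C followed by a run of pyrimidines, the terminal oligopyrimidine (TOP) motif, through which the mTOR pathway and LARP1 govern their translation. The annotated starts of the standard genes, most of which were higher in BMDM, were examined in RefSeq (GRCr8). The arrays measure mRNA levels, and translation was not measured. A window was found for 37 of the 45 standard cytosolic genes, 73 of 127 copies and 50 of 61 mitochondrial genes. A run of at least 5 pyrimidines that began with C at the annotated start was present in 13 of the 37 standard genes (35.1%), in 2 of the 73 copies (2.74%) and in 2 of the 50 mitochondrial genes (4.0%), beside 2.63% of 33469 annotated genes. When the run could begin within 5 bases of the annotated start, it was present in 19 of 37 standard genes (51.4%), 14 of 73 copies (19.2%), 10 of 50 mitochondrial genes and 5704 of the 33469. Rpl22, Rplp0 and Rps3a had such a start, while Rps15a and Rpl24, which were also among the genes that rose most, had none at the annotated start. The stretches below run from 10 bases before to 20 bases from the annotated start, with the run of pyrimidines at the start in capitals.
Rpl22, chr5:168117951-168117980, plus strand: gcgcccccctCCCTTTCTgcctcctctgcc
Rplp0, chr12:46718371-46718400, minus strand: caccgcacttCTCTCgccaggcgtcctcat
Rps3a, chr2:173827023-173827052, minus strand: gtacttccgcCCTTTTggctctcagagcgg
Rps15a, chr1:181860265-181860294, minus strand: ttttctttccacagtcaccatggtgcgaat
Rpl24, chr11:58128386-58128415, minus strand: tagggaggagattctctaccctataaggtg

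A pyrimidine start was found for 22 probe sets of 13 standard genes. Of these, 16 were higher in BMDM than in CSF1-Fc livers and 1 lower, with a median of 1.37 log2. Of the 33 without such a start (24 genes), 22 were higher and 3 lower, with a median of 1.08. Over all probe sets 19.9% were called higher and 17.5% lower. Some genes counted several times: Rpl39 gave 6 of the 22 probe sets and Rpl18 gave 4 of the 33, with identical ones among them. The class without such a start holds Rpl27a and Rps23, whose annotated starts carry 19 pyrimidines that begin with T. It also holds Rps15a, which has pyrimidines directly before its annotated start. The classes may therefore not divide genes with a TOP motif from genes without one. These shares are a description of annotated starts, which may differ from the starts used in these cells.

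Copies followed the genes they are named after only in part. For 62 copies the standard gene was also measured, on its brightest probe set. These pairs shared 30 standard genes, so that the same standard gene counts in several pairs. In 44 cases the standard gene was higher in BMDM than in CSF1-Fc livers. The copy was also higher in 19 of them, lower in 1 (Rpl27l7, chosen after its values were seen) and did not pass in 24. Of all 129 cytosolic copies 34.9% were called higher, beside 19.9% of all probe sets. Over the 62 pairs the differences of copy and standard gene had a Pearson correlation of 0.367. The copy's difference was the smaller one in 47 of 62 pairs, and over all 62 pairs the median of copy minus standard difference was -1.06 log2. The median cytosolic copy read 3.94 log2 in CSF1-Fc livers, beside 8.62 for standard cytosolic probe sets and 3.81 for all probe sets. Many copies may therefore lie near background, and the part of this in their smaller differences was not tested. Whether copy probes also bind mRNA of the standard gene was not tested either.

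**Figure D4:**
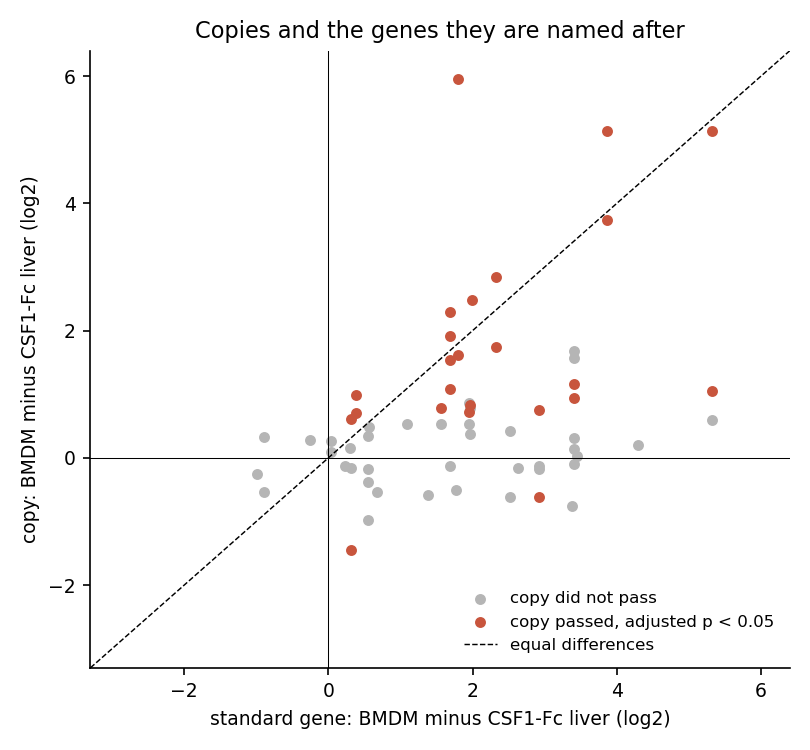
Log2 difference between BMDM and CSF1-Fc livers of 62 copies (vertical axis) and of the standard gene each is named after (horizontal axis). Each point is a copy and the dashed line marks equal differences; 47 points lie below the line.

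Some copies rose by several log2 units. Rps23-ps11, which RefSeq lists as protein coding, read 4.25, 3.87, 3.81 and 4.21 in CSF1-Fc livers and 9.20, 9.56 and 11.20 in BMDM, a difference of 5.95 (SE 0.45, adjusted p = 3.472e-05) against 1.80 for Rps23. Rps15al4 rose by 5.14 (SE 0.14), close to the 5.32 of Rps15a. Rpl22l2 rose from 1.93, 1.58, 1.34 and 1.40 in the livers to 7.12, 6.41 and 6.58 in BMDM, and its liver levels were so dim that they may be background, so the size of its increase is uncertain. Others were lower in BMDM. Rpl18al1 read 9.58, 9.47, 8.97 and 9.40 in the livers and 6.49, 7.13 and 5.68 in BMDM (-2.92, SE 0.33), and Rpl12a-ps1, Rpl10l1 and Rps2-ps15 fell by 1.54, 1.45 and 1.27.

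Of the named paralogs, Rpl7l1, a relative of Rpl7 that acts in rRNA processing, was lower in BMDM, at 8.01, 7.81 and 7.80 against 8.65, 8.60, 8.83 and 8.67 (-0.81, SE 0.13, adjusted p = 0.002063). Rpl3l, the form of Rpl3 used in heart and skeletal muscle, read between 1.84 and 2.69 on all 9 arrays. Rps4y2, placed on chromosome 4 in the rat, differed by -0.07 (SE 0.28), and Rps19bp1 by 0.14 (SE 0.20).

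Mitochondrial ribosomal proteins were called in both directions within each subunit, and the share of lower calls in the class (21.9%) was near the 17.5% of all probe sets. In the large subunit 16 of 41 probe sets were higher in BMDM and 9 lower, and in the small subunit 9 of 23 were higher and 5 lower. Mrpl42 and Mrpl18 rose most in the large subunit, by 3.30 (SE 0.21, 9.88-fold) and 3.14 (SE 0.16, 8.84-fold), followed by Mrpl13 at 2.02. Mrpl18 read 4.02, 4.29, 3.81 and 3.99 in CSF1-Fc livers and 7.21, 7.27 and 7.04 in BMDM. Those liver levels lay near the median of all probe sets (3.81) and may be background, so the size of the increase is uncertain. In the small subunit Mrps25 rose by 2.97 (SE 0.13, adjusted p = 2.522e-06), from 4.94, 5.11, 5.04 and 5.13 in the livers to 8.01, 8.15 and 7.92, and Mrps14 and Mrps33 rose by 2.59 and 2.51.

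In the opposite direction, Mrpl4 read 9.10, 9.40, 9.20 and 9.13 in CSF1-Fc livers, 9.13 and 9.44 in PBS livers and 6.96, 6.96 and 7.21 in BMDM (-2.17, SE 0.14, adjusted p = 1.879e-05). The groups did not overlap, and the level in BMDM was 4.5-fold lower. Mrpl34 and Mrpl43 fell by 1.80 and 1.49, and in the small subunit Mrps21l, Mrps2 and Mrps26 fell by 1.17, 1.15 and 0.95. The cytosolic standard genes, by contrast, held 4 lower calls among 72.

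The S18 proteins have 3 paralogs in mammalian mitochondria, of which the Mrps18a protein sits in the large subunit and the others in the small one, although all are counted here with the small subunit by their Mrps names. Mrps18b was higher in BMDM by 1.11 (SE 0.18, adjusted p = 0.001826), at 7.75, 7.36 and 7.73 against 6.24, 6.51, 6.51 and 6.76. Mrps18a differed by -0.18 (SE 0.17) and Mrps18c by 0.17 (SE 0.20), and neither passed. In the livers Mrps18a read 7.72 and 8.91 with PBS and 7.78, 8.10, 7.89 and 7.90 with CSF1-Fc, again with PBS liver 2 on top.

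Promoters of nuclear genes for mitochondrial proteins often carry sites of the ETS factor GABP and of NRF1. In windows from 250 bases before to 50 bases from the annotated start, searched on both strands, CCGGAAG was found in 16 of 50 mitochondrial ribosomal protein genes (32.0%), 10 of 37 standard cytosolic genes (27.0%) and 8.75% of all 33469 windows. The NRF1 motif was found in 8 of 50 (16.0%), 3 of 37 (8.11%) and 4.25%. AAGATGGCG, bound by YY1, was found in 7 of 50, 3 of 37 and 1.73%, and CACGTG, bound by MYC and MAX, in 6 of 50, 3 of 37 and 6.42%. GGGCGG, bound by SP1, was found in 25 of 50, 23 of 37 and 33.1%. The windows were not matched for base composition. None of these motifs contains another, although matches can overlap. The S18 paralogs are shown because each window holds a match to the ETS or the NRF1 motif, which is in capitals.
Mrps18a, chr9:22367400-22367429, minus strand: acacccctgctCCGGAAGcggaagtgcaca
Mrps18b, chr20:2842976-2843005, plus strand: tccttgtccgGCGCATGCGCagtcgttctt
Mrps18c, chr14:9123027-9123056, minus strand: gtgtcacgtgaCTTCCGGcccggggagcgc

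The match of Mrps18c is to the reverse complement of CCGGAAG, with CACGTG beside it in lower case, and that of Mrps18b reads as the NRF1 motif on both strands. A match is a description of the letters in the window and not evidence of binding. Of 11 measured genes of mitochondrial DNA transcription and its regulators 4 were higher in BMDM than in CSF1-Fc livers and 3 lower (median 0.07). Of all probe sets 19.9% were called higher and 17.5% lower in that comparison. Ssbp1, a mitochondrial DNA-binding protein, was highest of the list at 3.41. Gabpa, which encodes the DNA-binding subunit of GABP, was higher in BMDM than in CSF1-Fc livers by 1.75 log2 (SE 0.15, adjusted p = 5.965e-05), and Ppargc1a, a coactivator of mitochondrial biogenesis, was lower by -4.66 (SE 0.31).

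Partners of the mitochondrial ribosome went both ways in BMDM. Over all probe sets 19.9% were called higher than in CSF1-Fc livers and 17.5% lower. Of 11 measured mitochondrial tRNA synthetases 5 were lower than in CSF1-Fc livers and 0 higher (limma; 1 at an unadjusted p under 0.05), with a median of -0.39, led by Wars2 (-1.86) and Sars2 (-1.63). Of 13 measured factors of mitoribosome assembly 2 were higher and 6 lower (median -0.59), with Mterf4 at -1.97. Of 6 measured subunits or partners with other names 3 were higher and 1 lower: Ptcd3, a small-subunit protein, rose by 2.16, and Oxa1l, which inserts new chains into the inner membrane, fell by 2.25. Translation factors of mitochondria were higher in 5 of 9 cases and lower in 2. The lower shares of the translation factors (22.2%) and of the genes with other names (16.7%) were near that of all probe sets.

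Factors of cytosolic ribosome production were also compared between BMDM and CSF1-Fc livers, where 19.9% of all probe sets were called higher and 17.5% lower. Of 54 rRNA processing and assembly genes 29 were higher in BMDM and 5 lower (median 0.58), led by Ebna1bp2, a nucleolar assembly factor, at 3.22 (SE 0.18). Of 21 initiation factors 12 were higher and 2 lower, among them Eif2s2 (2.60) and Eif5b (2.26). Of 10 S6 kinase and mTOR pathway genes 1 was higher and 6 lower, with Rps6ka2 at 1.55 and the translation repressor Eif4ebp1 at -1.40. Among markers of dividing cells, 10 of 15 were higher in BMDM and 2 lower (median 0.55), and the part of cell division in the ribosomal protein levels was not tested.

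BMDM were also set beside the PBS livers. The same BMDM arrays entered both comparisons. Against PBS livers 64 members were higher and 13 lower, where 10.2% of all probe sets were called higher and 10.4% lower. The standard cytosolic class held 34 of 72 higher and 0 lower (limma; by unadjusted p under 0.05 the latter were 3, beside 14.9% of all probe sets), with a median of 1.42 log2. The mitochondrial class held 13 of 64 higher and 9 lower, with a median of 0.01. Rps15a differed by 5.38, Rps3a by 5.57, Rpl24 by 4.35 and Rpl22 by 4.24, and in the other direction Mrpl34 by -2.33 and Mrpl4 by -2.24. The count of higher members fell with any array left out, to 35, 32 and 50 without BMDM 1, 2 and 3 in turn, beside 6.65%, 6.31% and 10.2% of all probe sets. In the same way, 26 were higher without PBS liver 1 and 58 without PBS liver 2, beside 5.1% and 4.85% of all probe sets and with the lone PBS liver assumed to vary like the BMDM arrays, and the mitochondrial median was -0.44 and 0.54 in turn.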

How the data were processed

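Total RNA of 4 CSF1-Fc liver, 2 PBS liver and 3 BMDM samples had been hybridised to Affymetrix Rat Gene ST arrays. The methods give TRIzol for the extraction of liver RNA. The deposited values were log2 levels per probe set, which the authors had summarised and normalised by robust multi-array average. The labels name Affymetrix Expression Console, which the methods give for quality control. The scan batches and any detection calls are not given in the sources used here, so a low level may be background. The number of arrays limits the precision.

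Each comparison was fitted on its pair of groups with limma 3.58.1 (lmFit and eBayes, R 4.3.3) over all 36685 probe sets, with Benjamini-Hochberg adjustment over all of them and a threshold of 0.05. Differences are between group means of log2 values. The script was checked on simulated data. Probe sets were named from the platform annotation, and symbols were matched to RefSeq promoter windows (GRCr8). Members and gene lists were chosen with earlier results of these data known.

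Named members were drawn from the 3 highest and 3 lowest differences of each subunit in each comparison, and not all of these are described. To them were added all measured paralogs and stalk, S18 and non-subunit genes, and up to 4 members with the largest outlying gap among CSF1-Fc livers. Up to 4 genes were named from each other list. Rpl4, Rpl28, Rps16, Rps23, Rps15al4, Rpl24l1, Mrpl27, the falling probe set of Rpl18 and the second probe set of Rpl22 fall outside this rule and were chosen after their values were seen. Probe sets of a gene were kept apart. The alternatives were 8 other settings and leaving out each array in turn.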

Additional observations from a re-analysis of the deposited data

Results flagged for a closer look

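Among the 4 CSF1-Fc livers, 1 array lay far from the other 3 for several named members, by Dixon's criterion for 4 samples, which chance alone meets in a small share of groups. CSF1-Fc liver 3 was lowest for the large-subunit gene Rpl36, by a gap of 0.94 log2 to the next liver, and for its copies Rpl36l6 (1.29) and Rpl36l2 (1.10). Rpl36 read 11.20, 11.37, 10.27 and 11.21 in the CSF1-Fc livers, and the same liver was lowest for Rpl24 by 0.96. CSF1-Fc liver 2 was highest for the copy Rps2-ps15 by 0.45 and for the mitochondrial small-subunit genes Mrps2 by 0.44 and Mrps24 by 0.34. For Rps19bp1 it met the criterion with a gap of only 0.08, because CSF1-Fc livers 1, 3 and 4 all read 5.91. Over all 269 members, 31 (11.5%) had such an array, beside 13% of all probe sets. It was liver 3 in 16 of the 269 members and liver 2 in 11. Over all 36685 probe sets it was liver 3 in 1426 (3.89%) and liver 2 in 1181 (3.22%).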

How the results depend on the processing

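In CSF1-Fc against PBS livers no member passed under any of the 8 other settings, and the result depended on the PBS livers: leaving out 1 array gave 0 to 22 lower and 0 higher members, with medians of -0.39 to 0.35 for cytosolic and -0.60 to 0.13 for mitochondrial probe sets. Both the 22 lower members and the lowest medians came without PBS liver 1, and the highest medians without PBS liver 2. Without any single CSF1-Fc liver no probe set on the array passed, so the absence of member calls there says nothing about the members. For BMDM against CSF1-Fc livers the 8 settings gave 100 to 136 higher and 19 to 30 lower members, and leaving out 1 array gave 111 to 127 and 22 to 30. The cytosolic median moved from 0.66 to 0.88 when dim probe sets were left out, and the mitochondrial median from 0.31 to 0.43 when values were quantile normalised again. With 1 array left out these medians ranged from 0.62 to 0.68 and from 0.27 to 0.41. The mean over the probe sets of Rpsa reversed its decrease on probe set 17848884 to an increase of 0.96. For BMDM against PBS livers the settings gave 50 to 94 higher members. The 13 lower members became 25 with all 9 arrays in one fit and 6 with the replicate number as a block. Leaving out 1 array gave 26 to 58 higher and 1 to 7 lower members there, with medians of 0.35 to 0.87 for cytosolic and -0.44 to 0.54 for mitochondrial probe sets. Samples with the same replicate number did not deviate together (correlations of -0.115 to 0.181), and the block left 100 higher and 19 lower members for BMDM against CSF1-Fc livers and 53 and 6 against PBS livers. Only 2 PBS arrays, the lack of detection calls and similar sequence among copies limit these values.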
